A study of Mus musculus with 25 samples.

Results

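Interferon-stimulated genes are the genes that cells switch on when an interferon binds its receptor. The set described here holds 37 of them, named in a list, of 25500 genes or unnamed probes tested. Probes were assigned to genes by RefSeq accession, or else by gene name. All 37 were measured. The probe of each member was well above background on 20 arrays or more of 25. No member passed the filter only through a group in which it was high.

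The arrays measured total RNA of whole colon from female mice aged 8 weeks, 1 mouse per array. Mice were wild type (WT) C57BL/6j or Card9-/- on that background. Both genotypes drank 2% (w/v) dextran sulphate sodium (DSS), a sulphated sugar polymer that damages the lining of the colon, for 7 days and then plain water for 5 days. Colon was taken before DSS (day 0, 3 arrays in each genotype), after it (day 7, 5 WT and 4 Card9-/- arrays) and after recovery (day 12, 5 arrays in each genotype). The design text gives 5 Card9-/- mice at day 7, and the other mouse is not analysed here. The mice lack CARD9, an adaptor of C-type lectin receptors, in every cell by their label. The only Card9 probe went against that label: it was well above background on 12 of the 12 arrays labelled Card9-/- and on 2 of the 13 WT arrays. Genotypes are therefore named as the labels give them, and each direction between genotypes rests on the labels.

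Type I interferons signal through IFNAR and the kinases JAK1 and TYK2 to a transcription factor complex that contains STAT2 and IRF9 and binds the interferon-stimulated response element (ISRE) in promoters. Interferon gamma, the type II interferon, acts through the gamma-activated site (GAS) and is known for inducing the immunity-related and guanylate-binding GTPases. Nucleic acid sensors in the cytoplasm raise interferon when they meet viral RNA, and many of them are interferon-stimulated themselves. In the gut, type I interferon tone is known to depend on signals from the microbiota.

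Promoter sequence is shown for members whose results are described in every array and whose window holds the ISRE before its start, together with Bst2, Oas1a and Igtp, whose windows hold both elements searched. RefSeq promoter windows of GRCm38.p6, from 250 bases before to 50 bases after a start, matched 28 of the 37 members. The ISRE core searched was GAAA, any 2 bases and GAAA, and the GAS was TTC, any 3 bases and GAA, each on both strands, and overlapping matches were counted. The ISRE core stood in the windows of 17 of 28 matched members (60.7%) and of 1079 of 27025 genes in the table (3.99%). A GAS stood in those of 4 of 28 members (14.3%) and of 2582 of 27025 genes (9.55%). In the sequences below, written along the gene's strand, capitals mark the ISRE core or its reverse complement.
Ifit1, chr19:34640760-34640838, plus strand: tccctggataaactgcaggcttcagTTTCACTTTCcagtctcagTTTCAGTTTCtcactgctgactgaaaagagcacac
Bst2, chr8:71537562-71537627, minus strand: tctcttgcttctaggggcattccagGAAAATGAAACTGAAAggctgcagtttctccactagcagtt
Oas1a, chr5:120907526-120907570, minus strand: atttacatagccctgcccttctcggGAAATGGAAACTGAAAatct
Oas3, chr5:120777700-120777759, minus strand: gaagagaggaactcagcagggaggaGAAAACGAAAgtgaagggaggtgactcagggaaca
Isg15, chr4:156200850-156200921, minus strand: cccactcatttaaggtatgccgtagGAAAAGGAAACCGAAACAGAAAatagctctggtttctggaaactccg
Igtp, chr11:58199497-58199555, plus strand: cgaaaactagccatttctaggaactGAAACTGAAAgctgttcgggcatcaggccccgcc
Apol9a, chr15:77411099-77411164, minus strand: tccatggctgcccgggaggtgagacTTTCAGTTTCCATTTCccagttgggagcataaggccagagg
Apol9b, chr15:77729010-77729071, plus strand: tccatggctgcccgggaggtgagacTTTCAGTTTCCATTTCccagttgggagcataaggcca
Isg15 held 3 overlapping matches and Ifit1 held 2 separate ones. The Apol9a and Apol9b stretches were identical over 62 of 62 aligned bases. A match is a string of letters and not a shown binding site.

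Values below are log2 signal relative to the 75th percentile of the same array, and a difference is one of group means in log2 units, given with its standard error (SE). Calls were made in limma at an adjusted p under 0.05 (Benjamini-Hochberg over all 25500 genes of a comparison). Levels of different genes are not compared, because each rests on its own probe. In whole tissue, fewer cells of a type and less RNA per cell cannot be told apart. Each array is 1 mouse. A p-value sets a difference against the spread between mice within groups. That spread was estimated over all 6 groups together and drawn toward that of other genes, so it is not that of the compared groups alone.

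4 arrays stood apart through pancreatic acinar genes (digestive enzymes such as Cpa1 and Pnlip). In Card9-/- day 7 replicates 2 and 3 the mean of 10 such genes exceeded that of the WT day 0 arrays by 14.67 and 15.03, in Card9-/- day 12 replicate 1 by 14.05, and in WT day 12 replicate 5 by 8.54. It lay between -0.78 and 2.63 in the other 21 arrays. 3 arrays stood apart through Hox genes of the proximal colon, whose mean exceeded that of the WT day 0 arrays by 2.97 in Card9-/- day 0 replicate 1, 2.5 in replicate 2 and 3.12 in WT day 7 replicate 1, against -1.16 to 1.11 in the others. For each comparison below, the count of called members is also given without these arrays, or with the Hox mean as a covariate, where it moved by over 1.5 times. Where the count so moved and calls were lost, without the 4 arrays with acinar genes or with the Hox covariate, the calls lost or kept are named.

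After recovery the interferon-stimulated genes lay above their starting level in WT colon and near or below it in colon labelled Card9-/-. The median over the 37 genes, relative to the WT day 0 mean, was 0.08, -0.03 and -0.01 in the WT day 0 arrays. At day 7 it was -0.22, 0.57, 1.29, 0.62 and 0.26 in WT arrays, and at day 12 it was 0.77, 0.77, 0.97, 1.24 and 0.92. The WT day 7 arrays were the most spread group, from below the day 0 arrays to above every WT day 12 array. In the arrays labelled Card9-/- the median was -0.18, 0.18 and 0.62 at day 0, 0.88, 1.26, 0.74 and 1.09 at day 7, and 0.12, -0.17, -0.55, 0.07 and -0.16 at day 12. At day 12 the genotypes did not overlap: the lowest WT array lay at 0.77 and the highest Card9-/- array at 0.12. Whole libraries moved together: WT day 7 replicate 3 was the highest of its group for 32 of 37 genes and replicate 1 the lowest for 29. Card9-/- day 7 replicate 2, an array with acinar genes, was the highest of its group for 34.

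**Figure D1:**
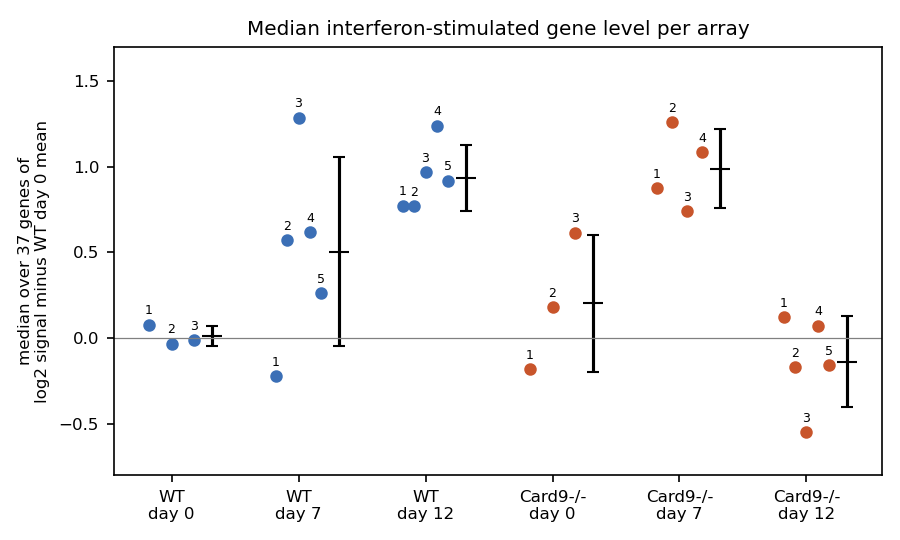
Median over the 37 interferon-stimulated genes of log2 signal minus the WT day 0 mean (y axis), for each array by group (x axis). Points are arrays with their replicate number, WT in blue and labelled Card9-/- in orange, and black bars are the group mean with its SD. The 5 WT arrays at day 12 lie between 0.77 and 1.24, above all 5 Card9-/- arrays at -0.55 to 0.12.

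**Figure D2:**
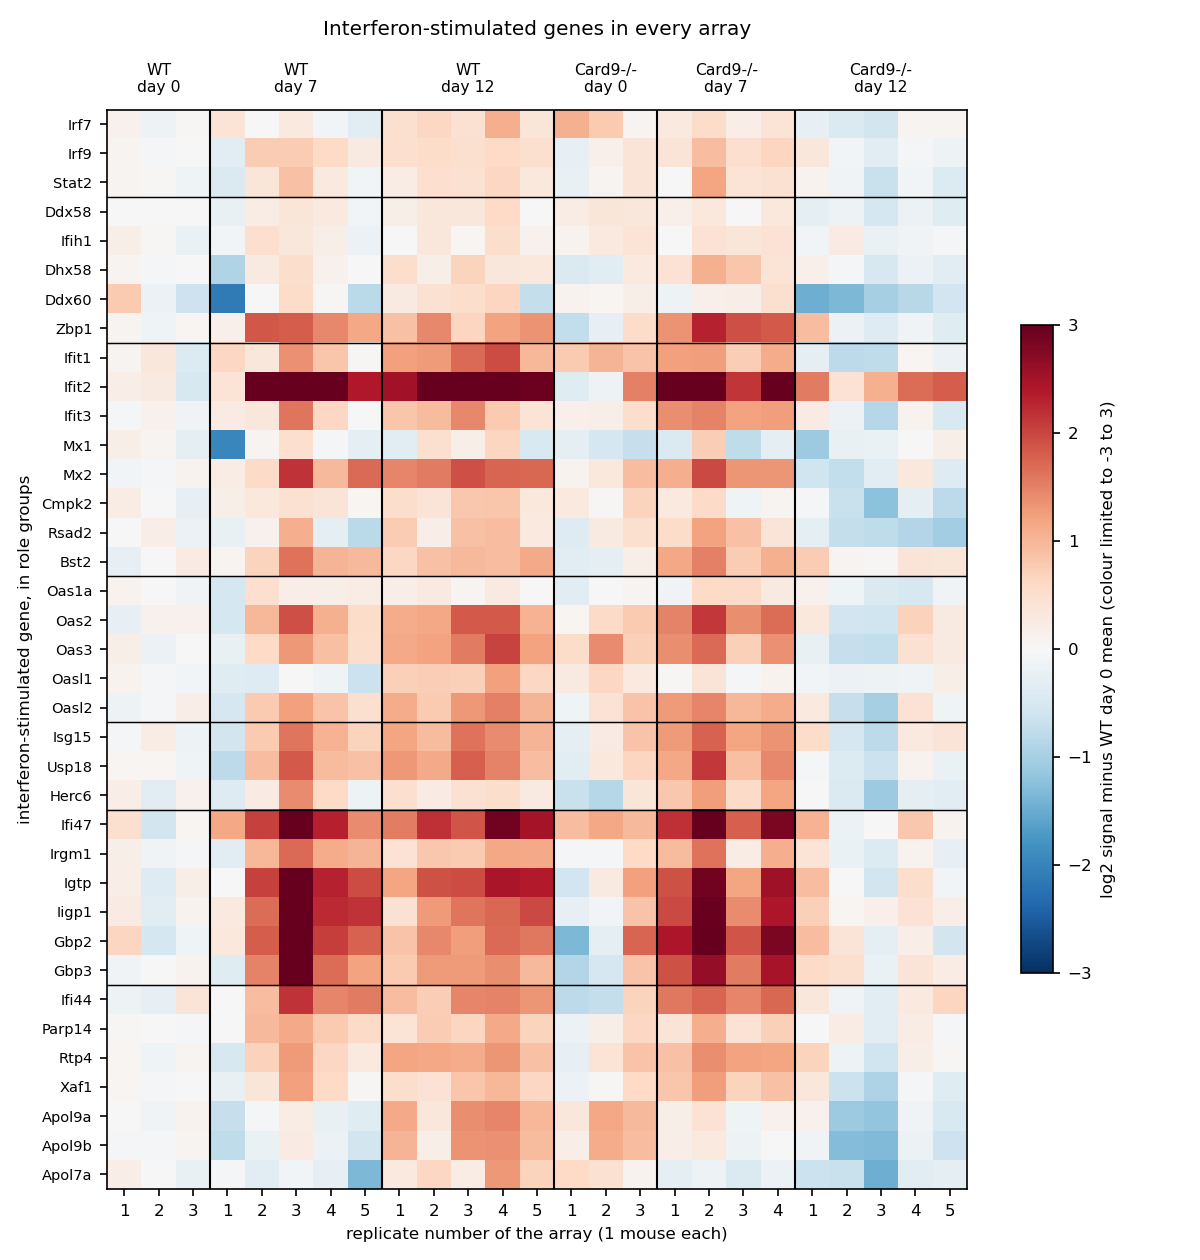
Log2 signal minus the WT day 0 mean (colour, limited to -3 to 3) for the 37 genes (rows, in role groups separated by lines) in 25 arrays (columns, by group and replicate number). Most rows are red at WT day 12 and pale or blue at Card9-/- day 12, and the GTPase rows and Ifit2 are the reddest at day 7.

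From day 0 to day 7, 5 of 37 members rose in WT colon, where 2.01% of all genes were called higher, and no member fell. The median difference over the members was 0.57, beside 0.03 over all genes tested. This count depended on single arrays. It was 1 without any of the 3 WT day 0 arrays, 14 without WT day 7 replicate 1, 2 without replicate 3 or replicate 4, and 3 without replicate 5. With the Hox mean as a covariate it was 12, and with only the compared groups in the fit it was 0. The main fit, of all 6 groups without a covariate, called 4.32% of all genes in either direction. That share was 6.24% without WT day 7 replicate 1, 6.4% with the Hox covariate and 0.149% with the compared groups alone. Without 1 WT day 0 array it was 1.54% to 2.21%. Of the 19 alternatives run, the call was lost in 13 for Bst2, 10 for Zbp1, 7 for Iigp1, 3 for Ifit2 and 2 for Ifi47. The median difference was 0.32 without WT day 7 replicate 3.

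Over the same days 15 of 37 members rose in colon labelled Card9-/-, where 6.90% of all genes were called higher, and none fell. The median difference was 0.80, beside -0.08 over all genes. The count was 6 without Card9-/- day 0 replicate 1, 7 without replicate 2, 9 without day 7 replicate 2, 8 without the 4 arrays with acinar genes, 5 with the Hox mean as a covariate, and 9 with only the compared groups in the fit. In that order, 12.6%, 12.9%, 16.1%, 12.8%, 14% and 9.4% of all genes were called in either direction, against 19.6% in the main fit. Without the 4 arrays with acinar genes the calls of Dhx58, Ifi47, Ifit3, Igtp, Isg15, Oas2 and Usp18 were lost. With the Hox covariate the median difference was 0.41. The 10 rises not called with it were those of Dhx58 (0.35), Gbp2 (1.65), Herc6 (1.02), Ifi47 (1.41), Ifit3 (0.93), Igtp (1.04), Iigp1 (1.39), Isg15 (0.61), Oas2 (0.84) and Usp18 (0.60). The 5 rises called in all 18 alternatives were those of Bst2, Gbp3, Ifi44, Ifit2 and Zbp1. Of the 18, the call was lost in 13 for Isg15 and Oas2, 10 for Usp18, 9 for Igtp and 8 for Dhx58 and Ifi47. It was lost in 5 for Herc6, 4 for Ifit3, 3 for Gbp2 and 1 for Iigp1. The genotype difference in this change was tested directly, and no member was called in limma, beside 0.00392% of all genes. An unadjusted p under 0.05 was found for 2 of 37 members, beside 2947 of 25500 genes.

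From day 7 to day 12 the genotypes went apart. In WT colon 3 members rose further, where 0.365% of all genes were called higher, and the median difference was 0.32, beside 0.01 over all genes. In colon labelled Card9-/- 26 of 37 members fell, where 1.97% of all genes were called lower, and all 37 differences were below 0. The groups did not overlap for 27 members that were lower, beside 3.57% of all genes. The median difference was -1.23, beside 0.02 over all genes. Without the 4 arrays with acinar genes the median was -1.33, but 4 members (Ifit1, Ifit3, Ifi47 and Zbp1) were called. In that setting 0.969% of all genes were called in either direction, against 7.69% with all arrays. Without Card9-/- day 7 replicate 2 the count was 14, beside 4.05% of all genes called in either direction. Between arrays of the same slide, which is also the same scan, the median difference was -2.01, -0.80, -0.57 and -1.39 on the 4 slides. In WT arrays of the same slide it was -0.21, 1.10, 0.42 and 0.37. The WT count was 1 without WT day 12 replicate 1, 3 or 4, without the arrays with acinar genes, and with slide as a block, 5 with the Hox covariate, and 0 with only the compared groups in the fit. Of 21 alternatives, the WT call was lost in 1 for Oasl1, 8 for Apol9a and 14 for Apol9b. Without the arrays with acinar genes the WT calls of Apol9a and Apol9b were lost. Over all genes in WT, 0.486% were called in either direction in the main fit, 0.11% without those arrays and 1.43% with the Hox covariate. None was called with the compared groups alone. The WT median difference was 0.13 without WT day 7 replicate 1 and 0.54 without replicate 3. Of 20 alternatives, the Card9-/- call was lost in 13 for Irgm1, 11 for Bst2, 11 for Irf9, 6 for Igtp, 6 for Dhx58, 5 for Ddx58 and 5 for Ifit2, and in 3 or fewer for the others.

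The genotype difference in this later change was also tested directly. It was below 0 for all 37 members, with a median of -1.57, beside 0.04 over all genes, and called for 2 members, Ifit1 and Oasl1, beside 0.00784% of all genes called lower. Those 2 were also the only genes called in this contrast across the array. The 2 calls were lost without WT day 7 replicate 1 or 2, Card9-/- day 7 replicate 1, 2 or 4, WT day 12 replicate 3, or Card9-/- day 12 replicate 2 or 3. They were lost without the 4 arrays with acinar genes as well. The count was 16 without WT day 7 replicate 3, and 7 under a stricter filter of 13 arrays. It was 4 without WT day 12 replicate 2, without Card9-/- day 12 replicate 4 or with the Hox covariate. Under normexp background correction or with only the compared groups in the fit it was 0. Over all genes, 0.243% were called in either direction without WT day 7 replicate 3, 0.0541% under that filter and 0.0157% with the Hox covariate. None was called with the compared groups alone or without the arrays with acinar genes.

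Against day 0, WT colon at day 12 was higher for all 37 members, and 6 were called, where 1.13% of all genes were called higher. For 33 members every WT day 12 array lay above every WT day 0 array, beside 9.35% of all genes. The median difference was 0.91, beside 0.03 over all genes. The count was 3 without WT day 0 replicate 1 or replicate 3, and 2 without replicate 2. It was 14 with the Hox covariate, and 17 with only the compared groups in the fit. The main fit called 1.73% of all genes in either direction. That share was 0.439%, 0.553% and 0.918% without WT day 0 replicate 1, 2 or 3 in turn. It was 2.89% with the Hox covariate and 2.55% with the compared groups alone. The call of Oas3 was lost in 8 of 19 alternatives, and those of the other 5 in 1 to 3.

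Colon labelled Card9-/- at day 12 was lower than its own day 0 for 29 of 37 members, and 7 were called, where 3.24% of all genes were called lower. The median difference was -0.32, beside -0.03 over all genes. The count was 4 without Card9-/- day 0 replicate 1 and 1 without replicate 2. It was 3 with the Hox covariate or with only the compared groups in the fit. In that order, 2.05%, 1.88%, 1.55% and 5.25% of all genes were called in either direction, against 6.94% in the main fit. While fewer members were called, the median difference was larger, -0.59 without replicate 1 and -0.68 with the Hox covariate. With that covariate the calls of Apol7a (-0.55), Irf7 (-0.38), Cmpk2 (-1.03) and Ifit1 (-1.03) were lost. Replicates 1 and 2 are the day 0 arrays with high proximal Hox genes, and the part of colon position in this result was not tested beyond the covariate.

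Between genotypes before DSS, no member was called, beside 0.00392% of all genes in limma. An unadjusted p under 0.05 was found for 7 of 37 members, beside 1268 of 25500 genes. Still, 8 members were higher in every Card9-/- array than in every WT array, beside 10.5% of all genes, and 1 was lower in every Card9-/- array, beside 5.76%. At day 7 no member was called in limma, beside 0.549% of all genes. Of 37 differences 35 were above 0, beside 10615 of 25500 over all genes, and the median was 0.40, beside -0.06. In limma 8 of 37 members had an unadjusted p under 0.05, beside 4207 of 25500 genes. Without WT day 7 replicate 3 the day 7 count was 7, all higher in the arrays labelled Card9-/-, beside 8.89% of all genes called in either direction in that setting. The median was 0.63 without that array and 0.26 without WT day 7 replicate 1.

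At day 12 all 37 members were lower in colon labelled Card9-/-, and 8 were called, where 0.0510% of all genes were called lower. The called members were Ifit1, Mx2, Cmpk2, Oas3, Oasl1, Apol9a, Apol9b and Apol7a, and they made up 8 of the 13 genes called lower in this comparison across the array. For 29 members every Card9-/- array lay below every WT array, beside 2.98% of all genes. The median difference was -1.11, beside -0.01 over all genes. Between arrays of the same slide the median was -1.47, -0.82, -0.56 and -1.48. The count was 11 without the 4 arrays with acinar genes and 5 without WT day 12 replicate 3. It was 13 with only these 2 groups in the fit and 4 under normexp background correction. In that order, 0.443%, 0.0471%, 1.1% and 0.0392% of all genes were called in either direction, against 0.0706% in the main fit. Ifit1, Apol9a and Apol9b were called in each of the 21 alternatives run for this comparison. The call was lost in 14 for Apol7a, 8 for Oas3, 2 for Cmpk2, 1 for Mx2 and 1 for Oasl1.

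**Figure D3:**
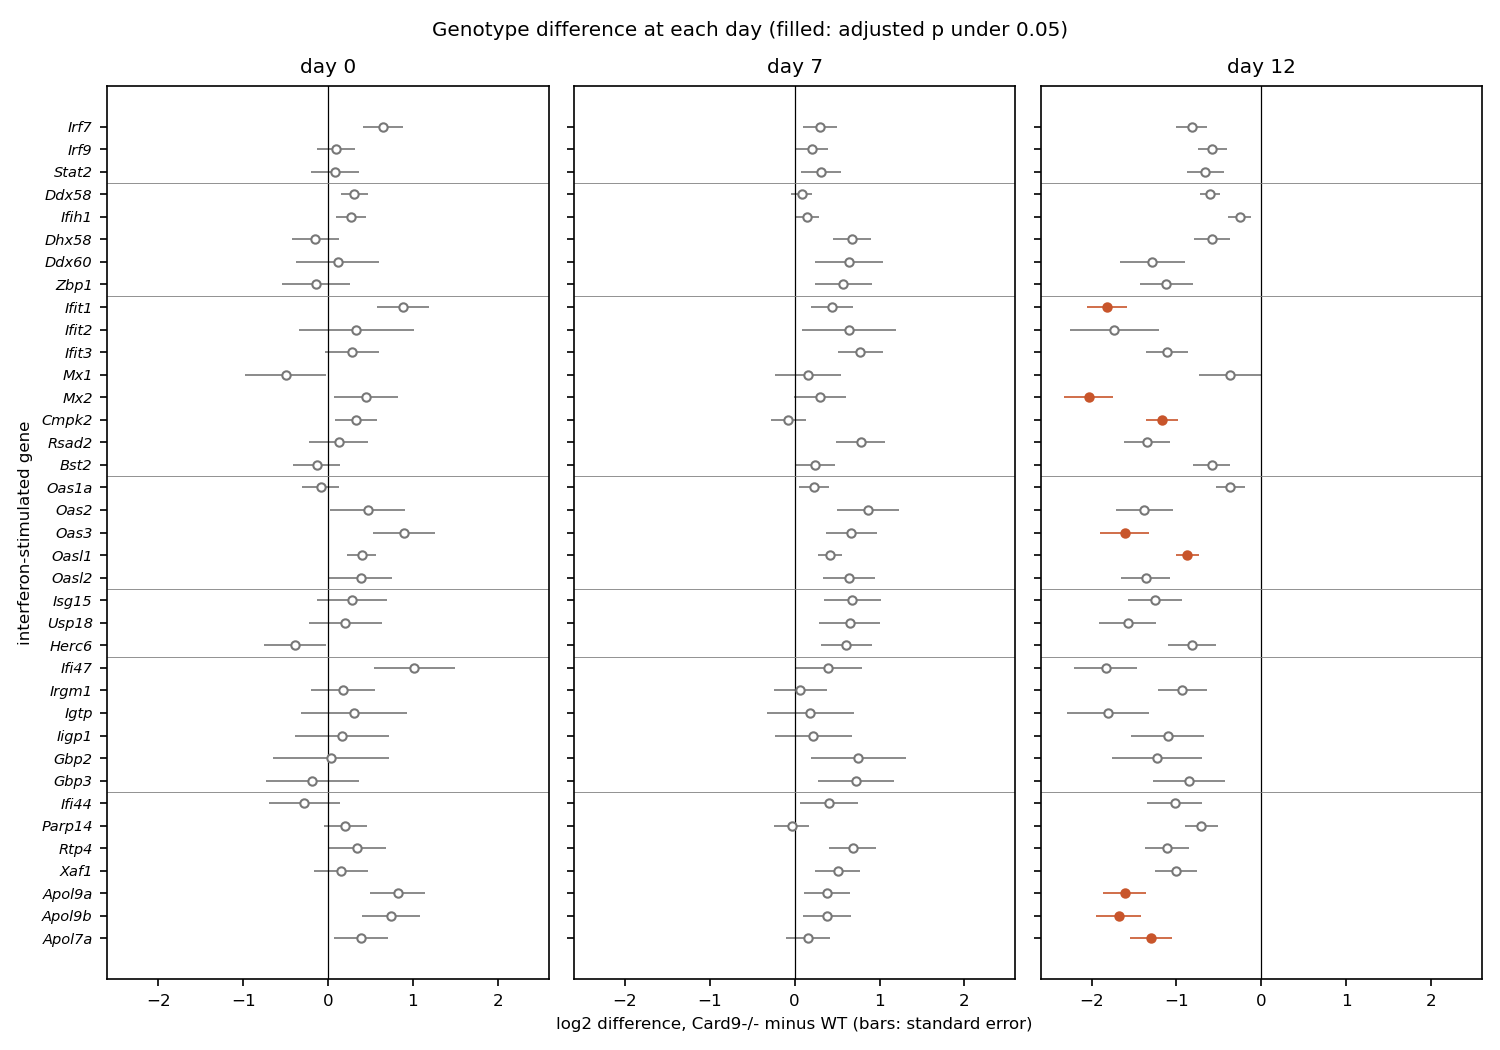
Log2 difference between arrays labelled Card9-/- and WT arrays (x axis) for each of the 37 genes (y axis, in role groups) at day 0, day 7 and day 12. Points are differences, bars are their SE, and filled points have an adjusted p under 0.05. At day 12 all 37 points lie to the left of 0 and 8 are filled, and at day 0 and day 7 none is filled.

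Among the transcription factors, which carry the interferon signal to the promoters, Irf7 drives the second wave of interferon alpha genes. Its WT arrays (probe at chromosome 7, 148450664 to 148451014, mm9) stood at 1.23, 0.97 and 1.15 at day 0, 1.52, 1.13, 1.41, 1.03 and 0.78 at day 7 and 1.61, 1.74, 1.57, 2.20 and 1.47 at day 12. In the arrays labelled Card9-/- Irf7 was at 2.19, 1.90 and 1.20 at day 0, 1.40, 1.67, 1.31 and 1.51 at day 7 and 0.86, 0.68, 0.55, 1.19 and 1.20 at day 12. All 5 WT arrays at day 12 lay above all 5 Card9-/- arrays of that day, and the Card9-/- day 0 arrays lay at or above the day 12 ones. The fall from day 0 to day 12 in Card9-/- arrays was called (-0.87 ± 0.21 SE, 1.82-fold, adjusted p = 0.017 in limma), while the genotype difference at day 12 was -0.82 ± 0.18 SE (adjusted p = 0.12). The call of the fall was lost in 4 of 19 alternatives: without Card9-/- day 0 replicate 1 or 2, with only the compared groups, and with the Hox covariate, where the difference was -0.38.

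Irf9, the DNA-binding subunit of the complex with STAT2, was at 2.49, 2.36 and 2.40 in WT arrays at day 0, 2.10, 3.18, 3.19, 3.00 and 2.68 at day 7 and 2.92, 2.97, 2.91, 3.01 and 2.89 at day 12 (probe at chromosome 14, 56228806 to 56228865, mm9). Its Card9-/- arrays stood at 2.16, 2.56 and 2.81 at day 0, 2.80, 3.34, 2.93 and 3.06 at day 7 and 2.76, 2.33, 2.10, 2.38 and 2.26 at day 12. The WT day 12 arrays were the tightest group, and 1 Card9-/- day 12 array, replicate 1, lay apart from the other 4. Irf9 fell from day 7 to day 12 in the arrays labelled Card9-/- (-0.67 ± 0.19 SE, adjusted p = 0.032 in limma). Stat2 was called in no comparison, and its difference between genotypes at day 12 was -0.66 ± 0.22 SE.

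Of the 5 nucleic acid sensors, Zbp1, which binds Z-form nucleic acid and can start cell death, had the largest rise to day 7 in both genotypes. Zbp1 was at 2.26, 2.05 and 2.23 in WT arrays at day 0, 2.33, 4.04, 3.98, 3.62 and 3.33 at day 7 and 3.05, 3.62, 2.83, 3.38 and 3.52 at day 12 (probe at chromosome 2, 173039307 to 173039366, mm9). The Card9-/- arrays read 1.45, 1.93 and 2.74 at day 0, 3.52, 4.48, 4.11 and 4.03 at day 7 and 3.11, 2.01, 1.79, 2.08 and 1.82 at day 12. It was high at day 7 in both genotypes, except in WT replicate 1, and at day 12 it was low in 4 of 5 Card9-/- arrays. Zbp1 rose to day 7 by 1.28 ± 0.36 SE in WT (2.43-fold, adjusted p = 0.046 in limma) and by 2.00 ± 0.38 SE in Card9-/- arrays (3.99-fold, adjusted p = 0.00087). It then fell in Card9-/- arrays to day 12 (-1.88 ± 0.33 SE, 3.67-fold, adjusted p = 0.0030 in limma), a call that held in all 20 alternatives run. The Card9-/- rise held in all 18, and the WT rise was lost in 10 of 19.

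Ddx58 encodes RIG-I, the sensor of uncapped viral RNA. In WT arrays Ddx58 was at 1.33, 1.31 and 1.33 at day 0, 1.10, 1.54, 1.69, 1.62 and 1.24 at day 7 and 1.5, 1.66, 1.67, 1.92 and 1.34 at day 12 (probe at chromosome 4, 40151893 to 40151952, mm9). In Card9-/- arrays it was at 1.55, 1.68 and 1.67 at day 0, 1.48, 1.63, 1.34 and 1.64 at day 7 and 1.02, 1.18, 0.79, 1.14 and 0.95 at day 12. The Card9-/- day 12 arrays were the lowest group and overlapped only with the lowest WT day 7 array. Ddx58 was lower at day 12 than at day 7 (-0.51 ± 0.13 SE, adjusted p = 0.018 in limma) and than at day 0 (-0.62 ± 0.14 SE, adjusted p = 0.0094) in Card9-/- arrays. A dimmer probe of Ddx58 did not show the fall from day 7 (0.04 ± 0.22 SE), so the probes disagree.

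Dhx58, which encodes LGP2, the regulator of the RIG-I family, rose to day 7 (0.83 ± 0.26 SE, adjusted p = 0.026 in limma) and fell to day 12 (-0.85 ± 0.22 SE, adjusted p = 0.024) in Card9-/- arrays. Ifih1, the gene of the long RNA sensor MDA5, and Ddx60, a helicase that aids RIG-I, were called in no comparison. Ddx60 differed between genotypes at day 12 by -1.28 ± 0.38 SE, with 2 of 5 Card9-/- arrays well above background.

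The 8 IFIT, Mx and other antiviral effectors held the members with the clearest genotype difference at day 12. Ifit1 binds viral RNA that lacks cap methylation and blocks its translation. WT arrays of Ifit1 (probe at chromosome 19, 34723796 to 34723855, mm9) read -0.55, -0.30 and -1.05 at day 0, -0.02, -0.30, 0.75, 0.21 and -0.59 at day 7 and 0.59, 0.65, 1.06, 1.33 and 0.36 at day 12. Its Card9-/- arrays read 0.16, 0.38 and 0.22 at day 0, 0.59, 0.61, 0.11 and 0.49 at day 7 and -0.90, -1.41, -1.40, -0.56 and -0.81 at day 12. At day 12 the genotypes were fully apart, and at day 0 they were fully apart in the opposite direction. Ifit1 was 3.52-fold lower in Card9-/- arrays at day 12 (-1.81 ± 0.23 SE, adjusted p = 0.0019 in limma).

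Over time, Ifit1 in WT arrays was 2.70-fold higher at day 12 than at day 0 (1.43 ± 0.27 SE, adjusted p = 0.0074 in limma). In Card9-/- arrays Ifit1 at day 12 was 2.77-fold below day 7 (-1.47 ± 0.25 SE, adjusted p = 0.0021 in limma) and 2.41-fold below day 0 (-1.27 ± 0.27 SE, adjusted p = 0.0072). The genotype difference in its change from day 7 to day 12 was -2.26 ± 0.34 SE (adjusted p = 0.020 in limma).

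Mx2 is a gene of the family of dynamin-like antiviral GTPases. Mx2 in WT arrays was at -3.33, -3.30 and -3.14 at day 0, -3.03, -2.68, -1.10, -2.29 and -1.55 at day 7 and -1.80, -1.70, -1.32, -1.52 and -1.53 at day 12 (probe at chromosome 16, 97782327 to 97782386, mm9). Card9-/- arrays showed -3.16, -2.94 and -2.32 at day 0, -2.16, -1.27, -1.93 and -1.94 at day 7 and -3.86, -4.00, -3.60, -2.94 and -3.65 at day 12. The WT day 12 arrays lay close together and high, and the Card9-/- day 12 arrays were the dimmest group, with 3 of 5 well above background. Mx2 was 4.09-fold lower in Card9-/- arrays at day 12 (-2.03 ± 0.29 SE, adjusted p = 0.0035 in limma), and under normexp background correction the difference was -0.97 and not called. It was also higher at day 12 than day 0 in WT (1.68 ± 0.33 SE, adjusted p = 0.011 in limma) and fell from day 7 to day 12 in Card9-/- arrays (-1.78 ± 0.31 SE, adjusted p = 0.0025).

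Ifit2, an RNA-binding relative of Ifit1, had the largest rise of the 37 members in both genotypes at day 7. It rose 6.51-fold in WT (2.70 ± 0.61 SE, adjusted p = 0.014 in limma) and 8.05-fold in Card9-/- arrays (3.01 ± 0.63 SE, adjusted p = 0.0021). At day 12 Ifit2 was still 8.23-fold above day 0 in WT (3.04 ± 0.61 SE, adjusted p = 0.011 in limma), while in Card9-/- arrays it fell 4.09-fold from day 7 (-2.03 ± 0.56 SE, adjusted p = 0.029). Its genotype difference at day 12, -1.73 ± 0.52 SE, was not called. Bst2, the tether that holds budding virions at the cell surface, rose to day 7 in WT (0.88 ± 0.25 SE, adjusted p = 0.048 in limma) and in Card9-/- arrays (1.26 ± 0.26 SE, adjusted p = 0.0019), and fell in the latter to day 12 (-0.80 ± 0.23 SE, adjusted p = 0.036).

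Ifit3, a partner of Ifit1, rose to day 7 in Card9-/- arrays (1.05 ± 0.30 SE, adjusted p = 0.016 in limma) and fell to day 12 (-1.56 ± 0.26 SE, adjusted p = 0.0021). Rsad2, the gene of viperin, which makes a chain-terminating nucleotide, fell from day 7 to day 12 in Card9-/- arrays (-1.5 ± 0.29 SE, adjusted p = 0.0047 in limma). Cmpk2, a mitochondrial nucleotide kinase, was lower at day 12 in Card9-/- arrays than in WT (-1.17 ± 0.19 SE, adjusted p = 0.011 in limma). Within the Card9-/- arrays Cmpk2 was also lower than at day 7 (-0.81 ± 0.20 SE, adjusted p = 0.019) and than at day 0 (-0.92 ± 0.22 SE, adjusted p = 0.015). Mx1, which carries a large deletion in C57BL/6 mice, was called in no comparison and differed by -0.37 ± 0.37 SE between genotypes at day 12.

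The OAS proteins sense double-stranded RNA, and the catalytic ones make oligoadenylates that switch on RNase L. Oasl1 lacks that activity and is known to hold back translation of Irf7. Oasl1 WT arrays were at 3.80, 3.66 and 3.62 at day 0, 3.34, 3.30, 3.71, 3.55 and 3.05 at day 7 and 4.40, 4.42, 4.42, 4.93 and 4.31 at day 12 (probe at chromosome 5, 115387861 to 115387920, mm9). Oasl1 Card9-/- arrays were at 3.96, 4.32 and 3.98 at day 0, 3.72, 4.08, 3.64 and 3.80 at day 7 and 3.61, 3.52, 3.53, 3.59 and 3.87 at day 12. In WT the gene had no rise at day 7 and was high in all 5 day 12 arrays, above every other WT array.

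Oasl1 in WT rose 2.15-fold from day 7 to day 12 (1.11 ± 0.13 SE, adjusted p = 0.0012 in limma) and stood 1.75-fold above day 0 (0.80 ± 0.15 SE, adjusted p = 0.0078). At day 12 it was 1.83-fold lower in Card9-/- arrays than in WT (-0.87 ± 0.13 SE, adjusted p = 0.0063 in limma). The genotype difference in its change from day 7 to day 12 was -1.29 ± 0.19 SE (adjusted p = 0.020 in limma).

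Oas3, the catalytic member that prefers long RNA, stood at -2.51, -2.87 and -2.67 in WT arrays at day 0, -2.90, -2.08, -1.39, -1.78 and -2.15 at day 7 and -1.56, -1.49, -1.11, -0.66 and -1.47 at day 12 (probe at chromosome 5, 121203598 to 121203657, mm9). Oas3 Card9-/- arrays stood at -2.14, -1.27 and -1.97 at day 0, -1.28, -1.0, -1.98 and -1.31 at day 7 and -2.91, -3.38, -3.42, -2.22 and -2.42 at day 12. Every Card9-/- day 12 array lay below every Card9-/- array of the earlier days. The gene was 3.06-fold lower in Card9-/- arrays than in WT at day 12 (-1.61 ± 0.28 SE, adjusted p = 0.022 in limma), and 2.78-fold lower than at day 7 (-1.48 ± 0.30 SE, adjusted p = 0.0068). In WT it was 2.69-fold higher at day 12 than at day 0 (1.43 ± 0.33 SE, adjusted p = 0.027 in limma). The Oas3 call between genotypes at day 12 was lost in 8 of 21 alternatives, and the WT call in 8 of 19.

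Oas2 rose to day 7 in Card9-/- arrays (1.20 ± 0.41 SE, adjusted p = 0.045 in limma) and fell to day 12 (-1.64 ± 0.36 SE, adjusted p = 0.0100). The rise was lost in 13 of 18 alternatives and the fall in 1 of 20. Oasl2 fell over the same recovery days (-1.43 ± 0.31 SE, adjusted p = 0.0090 in limma). Oas1a was called in no comparison, and its differences lay between -0.54 and 0.42 in the comparisons over time.

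The ISG15 system tags proteins with a ubiquitin-like modifier. Isg15, the modifier itself, was at 3.34, 3.61 and 3.24 in WT arrays at day 0, 2.86, 4.19, 5.01, 4.45 and 4.06 at day 7 and 4.59, 4.34, 5.04, 4.81 and 4.41 at day 12 (probe at chromosome 4, 155573649 to 155573708, mm9). Isg15 Card9-/- arrays were at 3.14, 3.65 and 4.26 at day 0, 4.68, 5.16, 4.59 and 4.74 at day 7 and 3.95, 2.89, 2.61, 3.68 and 3.78 at day 12. All WT arrays at day 12 exceeded all Card9-/- arrays at day 12, yet that difference was not called (-1.25 ± 0.32 SE, adjusted p = 0.18 in limma). Isg15 rose 2.16-fold to day 7 (1.11 ± 0.39 SE, adjusted p = 0.047 in limma) and fell 2.66-fold to day 12 (-1.41 ± 0.34 SE, adjusted p = 0.015) in Card9-/- arrays. The rise was lost in 13 of 18 alternatives, among them each that left out 1 Card9-/- day 7 array, and was 0.61 with the Hox covariate.

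Usp18 encodes the protease that removes ISG15 and also dampens the type I interferon receptor. Usp18 WT arrays were at -0.51, -0.52 and -0.70 at day 0, -1.36, 0.34, 1.25, 0.37 and 0.29 at day 7 and 0.71, 0.57, 1.22, 0.92 and 0.34 at day 12 (probe at chromosome 6, 121220874 to 121220933, mm9). Usp18 Card9-/- arrays were at -0.92, -0.27 and 0.07 at day 0, 0.59, 1.54, 0.33 and 0.85 at day 7 and -0.64, -1.0, -1.23, -0.46 and -0.78 at day 12. The pattern by array was that of Isg15, with WT day 7 replicate 1 low and replicate 3 high. Usp18 rose 2.30-fold to day 7 (1.20 ± 0.41 SE, adjusted p = 0.042 in limma) and fell 3.14-fold to day 12 (-1.65 ± 0.36 SE, adjusted p = 0.0092) in Card9-/- arrays. Its rise was lost in 10 of 18 alternatives and was 0.60 with the Hox covariate. Herc6, the main ISG15 ligase of mice, did the same (1.35 ± 0.34 SE, adjusted p = 0.0082, then -1.38 ± 0.30 SE, adjusted p = 0.0099 in limma).

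The 6 interferon-gamma-inducible GTPases, which attack the vacuoles of intracellular microbes, were the group with the largest median rise at day 7, 1.93 in each genotype. Ifi47, an immunity-related GTPase, was at 1.47, 0.44 and 1.05 in WT arrays at day 0, 2.16, 3.05, 4.39, 3.33 and 2.42 at day 7 and 2.52, 3.17, 2.87, 3.88 and 3.49 at day 12 (probe at chromosome 11, 48910402 to 48910461, mm9). Ifi47 Card9-/- arrays were at 1.91, 2.15 and 1.97 at day 0, 3.19, 4.07, 2.79 and 3.82 at day 7 and 2.04, 0.82, 0.99, 1.81 and 1.10 at day 12. Every WT array after DSS lay above every WT array before it, and the WT and Card9-/- day 12 arrays did not overlap.

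Ifi47 rose to day 7 by 4.23-fold in WT (2.08 ± 0.43 SE, adjusted p = 0.0079 in limma) and by 2.75-fold in Card9-/- arrays (1.46 ± 0.45 SE, adjusted p = 0.025). WT arrays at day 12 were 4.58-fold above day 0 (2.20 ± 0.43 SE, adjusted p = 0.0091 in limma), and Card9-/- arrays fell 4.34-fold from day 7 (-2.12 ± 0.39 SE, adjusted p = 0.0039). The genotype difference at day 12 was -1.83 ± 0.37 SE (adjusted p = 0.065 in limma) and was not called.

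Iigp1, a relative of Ifi47 that coats pathogen vacuoles, was at -0.53, -1.11 and -0.66 in WT arrays at day 0, -0.47, 0.91, 2.79, 1.48 and 1.39 at day 7 and -0.30, 0.51, 0.85, 0.96 and 1.21 at day 12 (probe at chromosome 18, 60551352 to 60551411, mm9). Iigp1 Card9-/- arrays were at -1.02, -0.85 and 0.08 at day 0, 1.22, 2.21, 0.66 and 1.66 at day 7 and -0.06, -0.70, -0.62, -0.32 and -0.58 at day 12. Day 7 was the high point in both genotypes, and at day 12 the lowest WT array lay within the Card9-/- range. It rose 3.96-fold in WT (1.99 ± 0.49 SE, adjusted p = 0.025 in limma) and 4.10-fold in Card9-/- arrays (2.04 ± 0.52 SE, adjusted p = 0.0079), and fell 3.72-fold in the latter to day 12 (-1.90 ± 0.45 SE, adjusted p = 0.015).

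Gbp2, a guanylate-binding GTPase, rose 6.17-fold to day 7 in Card9-/- arrays (2.63 ± 0.64 SE, adjusted p = 0.0057 in limma) and fell 5.75-fold to day 12 (-2.52 ± 0.56 SE, adjusted p = 0.010), the largest fall of the 37 members. Gbp3 rose 5.01-fold (2.33 ± 0.51 SE, adjusted p = 0.0029 in limma) and fell 3.61-fold (-1.85 ± 0.45 SE, adjusted p = 0.016). Igtp, an immunity-related GTPase, rose 3.54-fold (1.82 ± 0.59 SE, adjusted p = 0.032 in limma) and fell 3.92-fold (-1.97 ± 0.52 SE, adjusted p = 0.023). Its rise was lost in 9 of 18 alternatives. Irgm1, the regulator of the other immunity-related GTPases, fell to day 12 (-1.04 ± 0.31 SE, adjusted p = 0.043 in limma). None of the 6 was called between genotypes at day 12, where their median difference was -1.17.

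Apol9a and Apol9b, members of the apolipoprotein L family, followed another course. Apol9a in WT arrays was at 1.94, 1.85 and 2.06 at day 0, 1.26, 1.89, 2.18, 1.73 and 1.58 at day 7 and 3.1, 2.29, 3.34, 3.41 and 2.94 at day 12 (probe at chromosome 15, 77234221 to 77234280, mm9). Apol9a in Card9-/- arrays was at 2.29, 3.1 and 2.91 at day 0, 2.13, 2.38, 1.82 and 2.09 at day 7 and 2.07, 0.85, 0.75, 1.85 and 1.5 at day 12. WT arrays showed no rise at day 7 and were high at day 12, whereas the mean of the Card9-/- arrays was highest at day 0 and lowest at day 12. Single Card9-/- arrays of day 7 overlapped with those of day 0 and with those of day 12.

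Apol9a rose 2.44-fold from day 7 to day 12 in WT (1.29 ± 0.25 SE, adjusted p = 0.028 in limma) and lay 2.58-fold below day 0 at day 12 in Card9-/- arrays (-1.37 ± 0.29 SE, adjusted p = 0.0075). It was 3.06-fold lower in Card9-/- arrays than in WT at day 12 (-1.61 ± 0.25 SE, adjusted p = 0.0080 in limma).

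Apol9b was at 1.94, 1.96 and 2.09 in WT arrays at day 0, 1.24, 1.81, 2.24, 1.81 and 1.44 at day 7 and 3.02, 2.18, 3.35, 3.37 and 2.94 at day 12 (probe at chromosome 15, 77566751 to 77566810, mm9). Apol9b in Card9-/- arrays was at 2.20, 3.11 and 2.92 at day 0, 2.20, 2.30, 1.84 and 2.01 at day 7 and 1.90, 0.69, 0.68, 1.82 and 1.37 at day 12. These values track those of Apol9a array by array, and the 60-base probes of the pair share 57 bases, so the 2 genes cannot be told apart here. With the pair taken as 1 signal, 2 members rather than 3 rose from day 7 to day 12 in WT, 6 rather than 7 lay below day 0 at day 12 in Card9-/- arrays, and 7 rather than 8 were lower in Card9-/- arrays at day 12. Apol9b rose to day 12 in WT (1.26 ± 0.27 SE, adjusted p = 0.035 in limma), lay below day 0 in Card9-/- arrays (-1.45 ± 0.31 SE, adjusted p = 0.0071) and was 3.20-fold lower in Card9-/- arrays than in WT at day 12 (-1.68 ± 0.27 SE, adjusted p = 0.0080).

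Apol7a, of the same family, was lower at day 12 in Card9-/- arrays than in WT (-1.30 ± 0.25 SE, adjusted p = 0.048 in limma), a call lost in 14 of 21 alternatives, and below day 0 (-1.06 ± 0.29 SE, adjusted p = 0.028). Ifi44, a repressor of proliferation in cell lines, rose 3.75-fold to day 7 (1.91 ± 0.39 SE, adjusted p = 0.0016 in limma) and fell 2.75-fold to day 12 (-1.46 ± 0.34 SE, adjusted p = 0.014) in Card9-/- arrays. Rtp4, a receptor transporter protein, fell to day 12 (-1.15 ± 0.28 SE, adjusted p = 0.016 in limma), as did Xaf1, a partner of the apoptosis inhibitor XIAP (-1.23 ± 0.26 SE, adjusted p = 0.0084). Parp14, an ADP-ribosyltransferase, was called in no comparison, and its genotype difference at day 12 was -0.71 ± 0.20 SE.

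**Figure D4:**
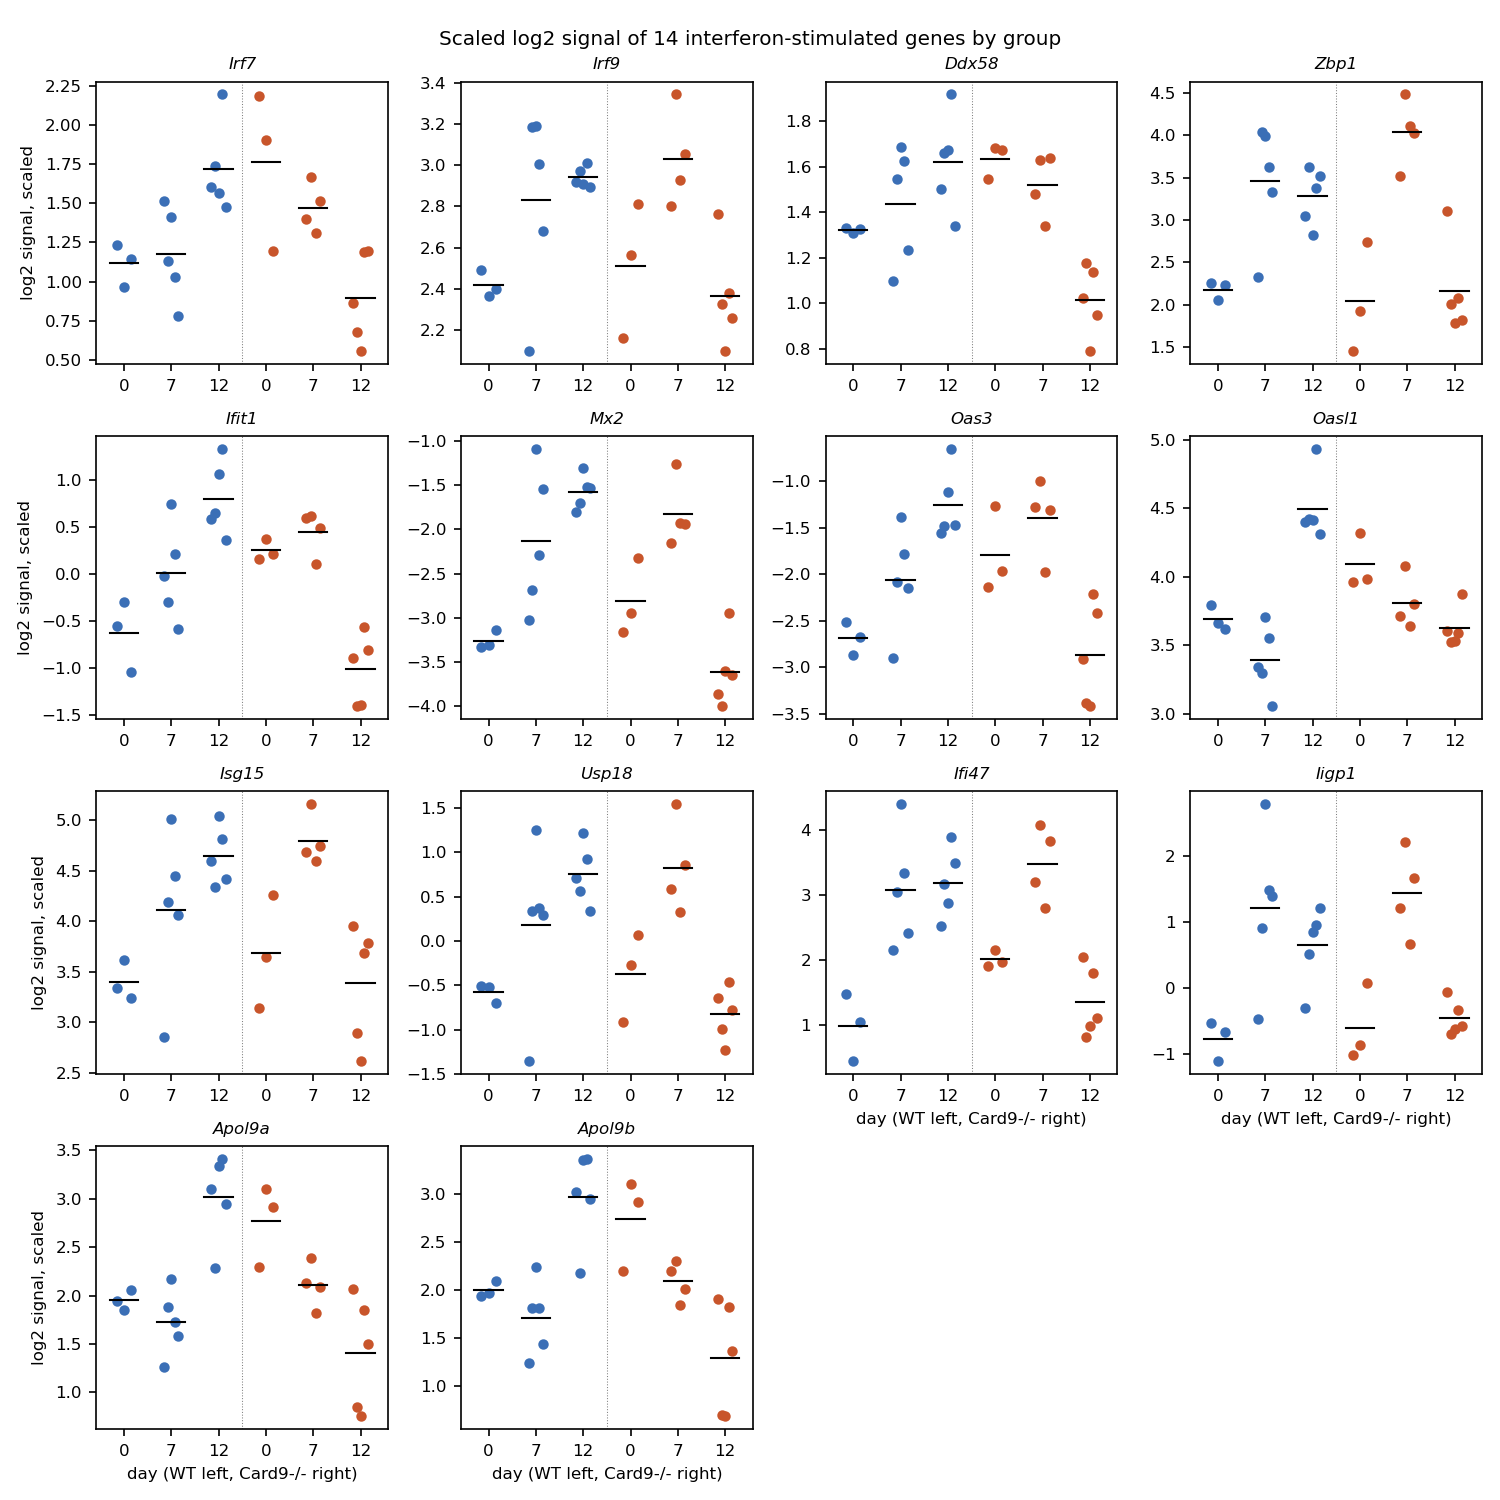
Log2 signal scaled to the 75th percentile of its array (y axis, a separate scale in each panel) for the 14 genes given in every array, by day (x axis) with WT in blue on the left and arrays labelled Card9-/- in orange on the right. Points are arrays and lines are group means. Ifit1, Mx2, Oasl1 and the Apol9 pair are high at WT day 12 and low at Card9-/- day 12, whereas Zbp1 and Iigp1 peak at day 7 in both genotypes.

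The 2 members of each role group shown in every array were taken by the smallest p of the moderated F test over the 6 groups, so they are not typical of the list. Mx1, Ifih1, Oas1a, Ddx60, Parp14 and Stat2 were called in no comparison over time or between genotypes.

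Detection of the ligands themselves was uneven. Of 15 interferon genes, 9 were tested, and Ifnb1, Ifna4 and Ifne were on the array but well above background on none of the 25 arrays. Ifnk and Ifnl3 were well above background on 25 arrays and Ifna1 and Ifna5 on 20. The other tested ligands were so on 4 (Ifna13) to 15 (Ifng) arrays. Ifng, the gene of interferon gamma, was not well above background on any Card9-/- day 0 array and was well above it on all 4 Card9-/- day 7 arrays, where it was at least 8.97-fold higher (adjusted p = 0.0031 in limma). The bound sets the day 7 mean against the higher, on each day 0 array, of its own signal and the dimmest signal well above background. Ifng then fell to day 12 in Card9-/- arrays (-3.47 ± 0.99 SE, adjusted p = 0.036 in limma), with 2 of 5 arrays well above background. In WT, Ifng was well above background on 1 of 3 arrays at day 0 and on 4 of 5 at day 7 and at day 12, so its differences rest in part on dim spots. In WT its difference from day 0 to day 7 was 3.26 ± 1.08 SE (adjusted p = 0.095), and its genotype difference at day 12 was -1.48 ± 0.94 SE (adjusted p = 0.72). No tested ligand was called between genotypes at any day in limma. At day 7, 1 of 9 had an unadjusted p under 0.05, beside 4207 of 25500 genes. None did at day 0 or day 12, beside 1268 and 2256 of 25500 genes.

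Among 11 receptor and Jak-Stat genes, Socs1, the feedback inhibitor of JAK kinases, rose to day 7 in WT (1.62 ± 0.44 SE, adjusted p = 0.039 in limma) and in Card9-/- arrays (1.76 ± 0.46 SE, adjusted p = 0.0095), and fell in the latter to day 12 (-1.51 ± 0.40 SE, adjusted p = 0.026). Ifnar2 (0.97 ± 0.24 SE, adjusted p = 0.0064) and Jak1 (0.49 ± 0.12 SE, adjusted p = 0.0072) rose to day 7 in Card9-/- arrays, and Jak1 was still above day 0 at day 12 (0.51 ± 0.12 SE, adjusted p = 0.011 in limma). Of 12 genes upstream of interferon, Irf5 (2.09 ± 0.42 SE, adjusted p = 0.0015) and Irf8 (0.65 ± 0.19 SE, adjusted p = 0.021) rose and Irf3 (-0.34 ± 0.10 SE, adjusted p = 0.017) and Mavs (-0.54 ± 0.13 SE, adjusted p = 0.0044) fell to day 7 in Card9-/- arrays. Irf3 (0.36 ± 0.08 SE, adjusted p = 0.014) and Mavs (0.51 ± 0.11 SE, adjusted p = 0.0095) rose again to day 12, and Irf5 stayed 1.74 ± 0.40 SE above day 0 (adjusted p = 0.012 in limma). Over all genes, 2.01% were called higher to day 7 in WT, and 6.90% higher and 12.7% lower in Card9-/- arrays. From day 7 to day 12 in Card9-/- arrays 5.72% were called higher and 1.97% lower, and 3.70% were higher at day 12 than at day 0.

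Another 57 interferon-induced genes, outside the 37, moved with DSS. To day 7 in WT, 13 were called higher and 1 lower, beside 2.01% and 2.31% of all genes. Those higher in WT were Adar, Dtx3l, Gbp4, Gbp11, Ifi204, Ifitm1, Ifitm3, Lgals3bp, Samhd1, Slfn2, Tgtp2, Trafd1 and Znfx1, from 0.45 for Znfx1 to 2.99 for Ifitm1, and the 1 lower was the exonuclease gene Isg20 (-0.44). In Card9-/- arrays 25 were called higher and 2 lower to day 7, beside 6.90% and 12.7% of all genes. Those higher were the GTPase genes Gbp4, Gbp7, Gbp8, Gbp11, Gm12250, Tgtp1 and Tgtp2 together with Dtx3l, Ifi203, Ifi204, Ifi27l2a, Ifit3b, Ifitm1, Ifitm3, Ly6e, Parp9, Plac8, Samhd1, Slfn2, Slfn8, Sp100, Trafd1, Trim30a, Uba7 and Ube2l6, and those lower were Isg20 (-0.69) and Samd9l (-0.37). Gbp8 and Tgtp1 were not well above background on any Card9-/- day 0 array, so their rises are bounds, at least 2.19-fold and at least 2.85-fold.

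From day 7 to day 12, 21 of the 57 were called lower in Card9-/- arrays and 1, Isg20 (0.55), higher, beside 1.97% and 5.72% of all genes, with none called in WT. Those lower were Gbp4, Gbp7, Gbp11, Gm12250, Tgtp1, Tgtp2, Dtx3l, Ifi204, Ifi27l2a, Ifit3b, Ifitm1, Ifitm3, Lgals3bp, Parp9, Parp10, Slfn2, Trafd1, Trex1, Uba7, Ube2l6 and Znfx1. Against day 0, Dtx3l, Ifit3b, Ifitm1 and Lgals3bp were higher at day 12 in WT, beside 1.13% of all genes. In Card9-/- arrays Ifi203, Ifi204, Ifitm1 and Slfn2 were higher at day 12 than at day 0 and Nmi, Parp10 and Samd9l lower, beside 3.70% and 3.24% of all genes. Between genotypes at day 12 none of the 57 was called in limma, and 17 had an unadjusted p under 0.05, beside 2256 of 25500 genes. Their median difference was -0.25, beside -1.11 for the 37 and -0.01 over all genes. Ifit3b, a close copy of Ifit3, fell from day 7 to day 12 in Card9-/- arrays by 1.38 on the log2 scale (0.23 SE, adjusted p = 0.0018 in limma). Ifitm1, an antiviral membrane protein gene, stayed above day 0 at day 12 in WT (2.31 ± 0.53 SE, adjusted p = 0.027) and in Card9-/- arrays (2.87 ± 0.53 SE, adjusted p = 0.0029 in limma), unlike the 37, of which none was called above day 0 at day 12 in Card9-/- arrays.

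Cell markers moved with DSS as well. Relative to the WT day 0 mean, the mean of 6 neutrophil genes was 2.66 to 5.99 in WT and 5.74 to 6.33 in Card9-/- arrays at day 7, and the mean of 8 macrophage and monocyte genes was 0.45 to 2.33 and 1.73 to 2.08. All 8 macrophage genes and all 5 red blood cell genes rose to day 7 in Card9-/- arrays, beside the 15 members that rose. So did 5 of 6 neutrophil, 3 of 4 B cell, 3 of 4 endothelium and 1 of 5 plasmacytoid dendritic cell genes, while 3 of 10 colon epithelium and 2 of 4 smooth muscle genes fell. Of all genes, 6.90% were called higher and 12.7% lower in that comparison. From day 7 to day 12 in Card9-/- arrays, 3 of 5 red blood cell genes, 1 of 8 macrophage genes and 1 of 6 neutrophil genes fell, with list medians of -2.39, -0.87 and -2.18, beside the 26 members that fell. Of all genes, 1.97% were called lower over those days. At day 12, where the members were lower in Card9-/- arrays, the macrophage mean was 0.89 to 1.25 in Card9-/- and 0.26 to 1.17 in WT arrays, and the neutrophil mean was 4.04 to 5.23 and 2.73 to 4.38. The mean of 5 plasmacytoid dendritic cell genes, of the cells known for making type I interferon, was 0.37 to 0.76 in Card9-/- and 0.44 to 0.84 in WT arrays at day 12. The mean of 10 colon epithelium genes was -0.24 to 0.13 and -0.24 to -0.04. In the same order of genotypes, 4 endothelium genes were at 0.28 to 0.78 and -0.33 to 0.31. The 4 B cell genes were at 1.25 to 2.66 and -1.07 to 2.06, and the 6 T cell genes at 0.28 to 1.20 and 0.45 to 0.80. For 3 NK cell genes it was 0.24 to 1.66 and 0.77 to 2.48. Smooth muscle genes were at -0.96 to -0.02 and -1.21 to -0.10, and red blood cell genes at -1.72 to 3.69 and -0.70 to 1.59. No gene of these marker lists was called between genotypes at day 12 in limma, and the part of cell numbers in the results was not tested.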

How the data were processed

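Total RNA of colon was hybridised to 25 Agilent 1-colour arrays on 4 slides. The deposited scanner files hold spot intensity values that Agilent Feature Extraction 10.7.3.1 had background-subtracted and detrended, per the file headers. The authors' deposited value table, on a log2 scale, was used only as an alternative, and how it was normalized is not given in the labels.

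The log2 of the processed signal minus the array's 75th percentile over 59305 non-control spots was used. Spots of a probe were averaged, without spots flagged in the scanner files as non-uniform or as population outliers. Of 55681 probes, 36356 were well above background on at least 3 arrays, and the probe with the highest mean stood for its gene. A model of 6 group means was fitted with limma 3.58.1 (R 4.3.3), and p-values were adjusted by Benjamini-Hochberg over 25500 genes in each of 11 comparisons. On simulated data for the genotype comparison at day 12, over 25500 genes, the fit recovered 53.7% of genes changed by 1 on the log2 scale, 80.6% at 2 and 95.5% at 4. The simulated arrays varied independently, with 1 spread per gene in all groups, so these rates leave out shifts of whole arrays and unequal spread. The number of arrays limits the precision.

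The members and lists were chosen with earlier results of these data known. A member is named in each comparison that called it, and the 2 members of each role group with the smallest p of the moderated F test are given in every array. Pathway genes outside the list are counted, and those called are named, except 1 that is not reported here. Alternatives were normexp background correction (offset 50), quantile normalization, the deposited table, other filters, the mean of all probes, slide or replicate number as a block, the Hox covariate, the compared groups alone, and leaving out arrays.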

Additional observations from a re-analysis of the deposited data

Results flagged for a closer look

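Across the 14 genes given in every array and the median over the members, 60 sets of 4 or 5 arrays were tested, and 3 had an array far from the others, where chance marks about 1 in 20. Oasl1 in WT day 12 replicate 4 was at 4.93, above the other 4 arrays of its group. Oasl1 in Card9-/- day 12 replicate 5 was at 3.87, the highest of its group. Zbp1 in Card9-/- day 12 replicate 1, an array with pancreatic acinar genes, was at 3.11, above the other 4 arrays of its group.

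The change from day 7 to day 12 differed between genotypes, by the interaction test in limma, for Ifit1 (-2.26) and for Oasl1 (-1.29). Both are comparisons of the report, and both calls were lost when any of several single arrays was left out, as given there.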

How the results depend on the processing

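Quantile normalization, the deposited value table and the mean of all probes left every count of called members within 1.5 times, and none of the 72 called member differences, the ones rerun, changed sign in any alternative. With normexp, 4 members were called between genotypes at day 12 and 0 for the genotype difference in the change from day 7 to day 12. Without a filter, 3 members rose to day 7 in WT. With the filter of 13 arrays, 8 did, and 7 were called for that later genotype difference. With slide as a block, 1 member rose from day 7 to day 12 in WT. Replicate numbers did not pair the arrays (correlations of deviations from -0.40 to 0.26), and with the replicate block 2 members rose to day 7 in WT, 1 rose from day 7 to day 12 in WT, and 0 were called for the later genotype difference. With the Hox covariate the counts were 12 (WT to day 7), 5 (Card9-/- to day 7), 5 (WT day 7 to day 12), 14 (WT day 0 to day 12), 3 (Card9-/- day 0 to day 12) and 4 (later genotype difference). With the compared groups alone they were 0, 9, 0, 17, 3 and 0 in the same order, and 13 between genotypes at day 12. Without the 4 arrays with acinar genes they were 8 (Card9-/- to day 7), 1 (WT day 7 to day 12), 4 (Card9-/- day 7 to day 12) and 0 (later genotype difference). The share of all genes called moved in these settings as well, as given with the comparisons above. Leaving out 1 array at a time gave 1 to 14 (WT to day 7), 6 to 16 (Card9-/- to day 7), 1 to 3 (WT day 7 to day 12), 14 to 29 (Card9-/- day 7 to day 12), 2 to 7 (WT day 0 to day 12), 1 to 8 (Card9-/- day 0 to day 12), 0 to 7 (genotypes at day 7), 5 to 8 (genotypes at day 12) and 0 to 16 (later genotype difference). The causes were not tested. The replicate block changed no other count by over 1.5 times. Dim probes limit Mx2, Herc6 and Ddx60, which were well above background on 23, 22 and 20 of 25 arrays.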
